A study of Mus musculus with 12 samples.

Results

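The Frizzled receptors Fzd2, Fzd3, Fzd7, Fzd8, Fzd9 and Fzd10 were described across ocular lesions, control eyes and medulloblastomas of the mouse. They were chosen by gene symbol, and these 6 genes are all the Frizzled symbols among the 770 genes measured on the nCounter PanCancer Pathways panel. The panel counts RNA molecules with a fluorescent barcode for each gene, without amplification. The mouse has 10 Frizzled genes, and the other 4 were not analysed here. Fzd10 is also an older name of Fzd2, but the panel carries a row for each of them and each row matched a current symbol.

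Samples fell into 3 groups with a single lesion, eye or tumor per animal. RBS lesions (n = 5) came from the orbita of E18.5 embryos of the genotype Rax-creERT2::Ctnnb1(ex3)Fl/+SmoM2Fl/+. In these animals tamoxifen given at E8.5 activates Cre in cells using the Rax promoter, which is active in retinal precursors. Cre removes exon 3 of Ctnnb1, leaving a beta-catenin that escapes degradation, and switches on SmoM2, a constitutively active form of the Hedgehog transducer Smoothened. Control eyes (n = 4) were E18.5 eyes of the genotype Ctnnb1(ex3)Fl/+SmoM2Fl/+, which carry both alleles without the Cre driver. Shh-MBs (n = 3) were hindbrain tumors of 14-day-old hGFAP-cre::SmoM2Fl/+ mice, in which the human GFAP promoter drives Cre and only SmoM2 is activated. Therefore, tissue, age, Ctnnb1 allele and Cre driver cannot be told apart between Shh-MBs and either group of eyes. From control eyes, which have no Cre driver, Shh-MBs also differ in having active SmoM2. Cells other than the recombined cells are part of every sample, and in bulk RNA fewer cells of a type and less RNA per cell cannot be told apart.

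Depth was between 335392 and 716684 counts above background per sample, and it was lowest in RBS 1. Values are the normalized signal on the linear scale that the authors deposited. The 3 most abundant genes of each sample took between 26.9% and 29.7% of the signal in RBS lesions, between 42.8% and 50.9% in control eyes and between 50.0% and 51.8% in Shh-MBs. Ctnnb1 itself had a mean signal of 7957 ± 395 (SD, n = 5) in RBS lesions, 5688 ± 171 (n = 4) in control eyes and 4863 ± 287 (n = 3) in Shh-MBs. Where its probe lies relative to exon 3 is not given in the sources used here, so this does not check the recombination. Smo had a mean signal of 177, 157 and 158 in the same order. None of 19 eye and retina markers is on the panel, so the ocular labels could not be checked against defining markers. Of 9 granule neuron precursor markers 3 are measured (Zic2, Mycn and Ccnd2), and their summed signal was 6922 to 8438 in Shh-MBs against 1824 to 2439 in the 9 eyes.

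Frizzled proteins cross the membrane 7 times and bind Wnt ligands through a cysteine-rich domain on the outside of the cell. With the co-receptors Lrp5 and Lrp6 they recruit Dishevelled, which halts the destruction complex so that beta-catenin accumulates and acts with TCF/LEF factors on target genes. Without these co-receptors, Frizzleds also signal through planar cell polarity and calcium. In the developing eye and brain they are known for patterning, progenitor maintenance and the guidance of axons. By sequence, Fzd2 and Fzd7 belong to a common subfamily, Fzd9 and Fzd10 to another, and Fzd3 and Fzd8 to 1 more each.

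Both pathways altered in the RBS animals end at DNA-binding factors, TCF/LEF for Wnt and GLI for Hedgehog. For this reason the promoters of the Frizzled genes were read for their motifs. Promoters of 3 of the 6 genes were matched by symbol in RefSeq (Fzd7, Fzd9 and Fzd10). The 250 bases before each gene's start are given below 5′ to 3′ on the gene's strand, build GRCm38.p6, with TCF/LEF cores (CTTTGA or CTTTGT), GC boxes (GGGCGG) and CCAAT boxes (CCAAT) of either strand in capitals. Fzd7 lies at chr1:59481897-59482146 on the plus strand, Fzd9 at chr5:135251048-135251297 on the minus strand and Fzd10 at chr5:128600856-128601105 on the plus strand.
Fzd7: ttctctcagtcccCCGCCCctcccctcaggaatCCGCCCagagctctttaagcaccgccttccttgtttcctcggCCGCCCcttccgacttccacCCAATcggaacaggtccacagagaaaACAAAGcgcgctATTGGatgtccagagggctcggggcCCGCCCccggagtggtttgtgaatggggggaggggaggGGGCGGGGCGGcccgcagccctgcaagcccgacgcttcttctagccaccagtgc
Fzd9: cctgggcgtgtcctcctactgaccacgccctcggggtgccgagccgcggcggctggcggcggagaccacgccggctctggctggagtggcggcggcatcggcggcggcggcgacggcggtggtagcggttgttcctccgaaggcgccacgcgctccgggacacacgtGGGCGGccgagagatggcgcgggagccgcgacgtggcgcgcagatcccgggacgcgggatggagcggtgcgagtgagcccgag
Fzd10: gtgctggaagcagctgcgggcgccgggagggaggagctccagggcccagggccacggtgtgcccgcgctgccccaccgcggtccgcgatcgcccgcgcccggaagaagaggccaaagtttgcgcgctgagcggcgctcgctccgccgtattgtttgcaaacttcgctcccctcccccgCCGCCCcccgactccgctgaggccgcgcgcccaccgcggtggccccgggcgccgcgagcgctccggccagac

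The TCF/LEF core was searched as CTTTGA and CTTTGT and the GLI core as ACCACCC, on both strands. Fzd7 holds CTTTGT once, on the minus strand (printed as ACAAAG), and neither Fzd9 nor Fzd10 holds any of the 3. Among 32851 mouse promoters cut the same way, 13.8% hold CTTTGA, 16.5% CTTTGT and 3.92% ACCACCC. A match is no evidence of binding, and absence of these letters concerns this window alone. The Fzd7 window has 6 GC boxes, of which the last 2 share a base, and 2 CCAAT boxes. A single GC box and no CCAAT box is found in Fzd9 and in Fzd10. Of all promoters 32.7% have a GC box and 33.8% a CCAAT box. GC content was 65.2% for Fzd7 with 17 CpG dinucleotides, 76.4% for Fzd9 with 42, and 76.4% for Fzd10 with 37, against a median of 52.4% over all promoters. A GC content lower than in Fzd9 and Fzd10 was found in 97.0% of promoters.

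Compared with control eyes, RBS lesions had higher signals of Fzd3, Fzd8 and Fzd9, and no Frizzled gene was lower. The rise was 4.19-fold for Fzd9, 2.23-fold for Fzd8 and 2.05-fold for Fzd3 on the log2(signal + 1) scale. Fzd2, Fzd7 and Fzd10 did not pass the test. Over all 770 genes 51.2% passed in this comparison, 33.0% higher and 18.2% lower in RBS lesions (limma, adjusted p under 0.05). The 3 of 6 Frizzled genes that were higher are to be read against that background. Groups did not overlap for 2 of the 6 genes, Fzd3 and Fzd9, and for 43.4% of all genes. The median log2 difference was 0.66 over the 6 Frizzled genes and 0.17 over all genes. When samples were centred on their median, 177 genes were called higher and 177 lower in RBS lesions.

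**Figure D1:**
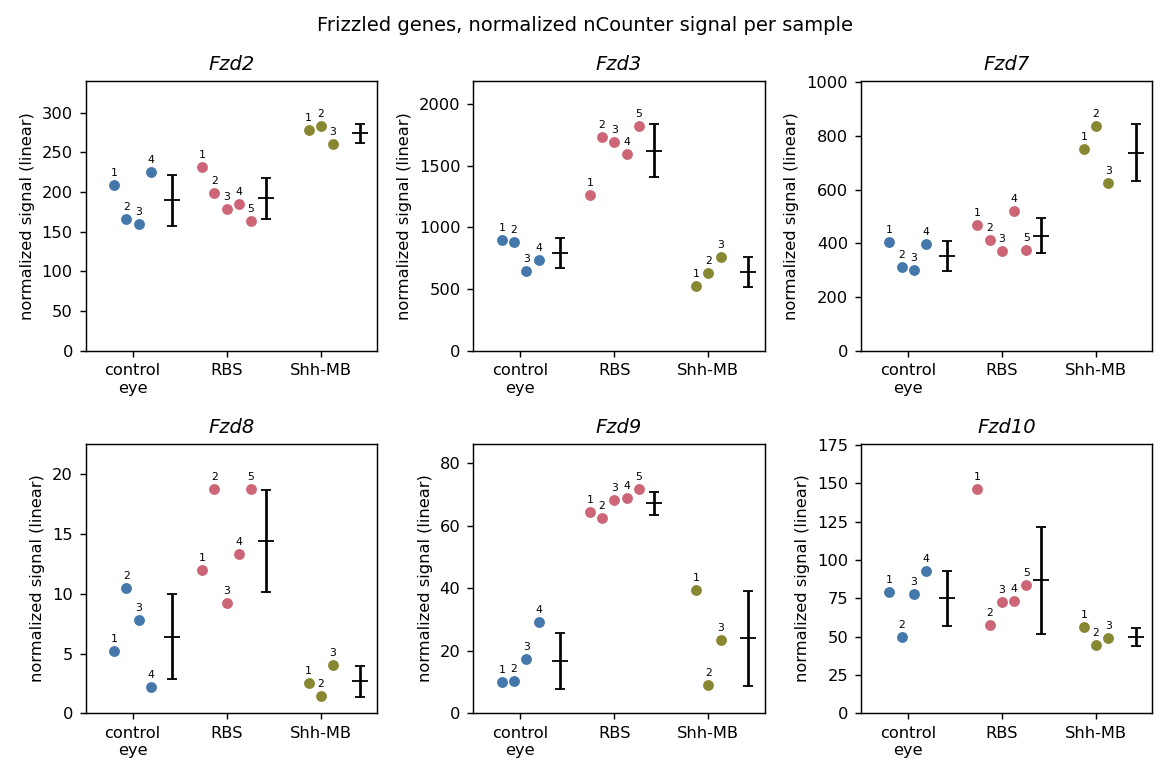
Normalized nCounter signal (linear axis from 0) of each Frizzled gene in every sample, with the replicate number above each point and the group mean ± SD in black beside it (control eyes n = 4, RBS lesions n = 5, Shh-MBs n = 3). All RBS lesions lie above all control eyes for Fzd3 and Fzd9, Shh-MBs lie above all eyes for Fzd2 and Fzd7, and RBS 1 stands above the other lesions for Fzd10.

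Fzd3 is a planar cell polarity receptor known for its role in the growth of axon tracts. Its signal was 1266, 1732, 1695, 1594 and 1822 in RBS lesions 1 to 5, 900.5, 879, 649 and 737 in control eyes 1 to 4, and 522, 631 and 762 in Shh-MBs 1 to 3. Every RBS lesion was above every other sample, with RBS 1 the lowest of the lesions, while the control eyes and Shh-MBs overlapped. RBS lesions exceeded control eyes by 1.04 ± 0.142 (log2, SE; 95% interval 0.71 to 1.36, limma adjusted p = 0.000329). Against Shh-MBs the difference was 1.35 (interval 0.96 to 1.74, limma adjusted p = 0.000194). The order of levels was thus RBS, then control eyes and Shh-MBs, whose difference of -0.31 (interval -0.75 to 0.12) did not pass the test (limma adjusted p = 0.216) and turned to 0.35 with median centring.

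Fzd9 is known from hippocampal development and from the chromosomal region deleted in Williams syndrome. In RBS lesions its signal was 64.5, 62.4, 68.2, 68.8 and 71.8. Control eyes measured 9.92, 10.5, 17.3 and 29.2. Shh-MBs measured 39.5, 8.97 and 23.5. RBS lesions were tightly grouped (67.1 ± 3.71, SD, n = 5) above all other samples, whereas control eyes (16.8 ± 8.99, n = 4) and Shh-MBs (24.0 ± 15.2, n = 3) overlapped and spread widely. The difference of RBS lesions from control eyes was 2.07 ± 0.277 (log2, SE; interval 1.44 to 2.69, limma adjusted p = 0.000283), and 2.86% of all genes had a larger one. From Shh-MBs it was 1.67 ± 0.388 (interval 0.77 to 2.56, limma adjusted p = 0.00576). Quantile normalization reduced the latter to 0.35 (limma adjusted p = 0.265) and median centring to 0.82 (adjusted p = 0.0537). Shh-MBs and control eyes differed by 0.40 (interval -0.95 to 1.75, limma adjusted p = 0.621). This became -0.06 without Shh-MB 1 and was called with quantile normalization (1.505, adjusted p = 0.0138).

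Fzd8, a receptor of the beta-catenin branch whose cysteine-rich domain is widely used as a Wnt trap, had signals near the low end of the scale. RBS lesions measured 11.95, 18.7, 9.19, 13.3 and 18.8. Control eyes measured 5.23, 10.5, 7.78 and 2.17. Shh-MBs measured 2.51, 1.48 and 4.03. RBS 3 lay below control eye 2, so the groups of eyes overlapped, and all Shh-MBs lay below all RBS lesions. No sample was at the lowest value of the scale, but these signals rest on about 7.28 to 23.1 counts above background in RBS lesions, 2.08 to 10.4 in control eyes and 1.58 to 4.75 in Shh-MBs. RBS lesions exceeded control eyes by 1.16 ± 0.369 (log2, SE; interval 0.32 to 1.99, limma adjusted p = 0.0266). The call was lost without RBS 2, without RBS 5 or without control eye 1 (adjusted p = 0.0598, 0.0586 and 0.0629), with median centring (0.98, adjusted p = 0.0732) and with quantile normalization (0.73, adjusted p = 0.159). The difference from Shh-MBs was 2.08 ± 0.296 (limma adjusted p = 0.000411). At such low signals the size depends on the pseudocount. With a pseudocount of 5 it was 1.32 against Shh-MBs and 0.79 against control eyes, both with a call. Shh-MBs were at 2.67 ± 1.28 (n = 3) and control eyes at 6.42 ± 3.56 (n = 4), which did not differ by the test (-0.92, interval -2.06 to 0.21, limma adjusted p = 0.168).

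Fzd10, known from the dorsal neural tube, gave 147, 57.6, 72.7, 73.6 and 83.7 in RBS lesions, 79.1, 50.0, 77.9 and 92.8 in control eyes and 56.3, 44.6 and 49.0 in Shh-MBs. RBS 1 was far above all other samples, and the remaining lesions lay within the range of the control eyes. Without RBS 1 the mean of the lesions fell from 86.8 ± 34.7 (SD, n = 5) to 71.9 ± 10.8 (n = 4), and the difference from control eyes went from 0.17 (interval -0.46 to 0.79, limma adjusted p = 0.646) to -0.04 (adjusted p = 0.889). All Shh-MBs were below all RBS lesions. That difference of 0.72 (interval 0.07 to 1.36) narrowly missed the threshold (limma adjusted p = 0.0538) and passed in 6 alternatives (adjusted p from 0.023 to 0.0494), among them leaving out RBS 1 (0.51) or RBS 2 (0.84). It turned to -0.27 with quantile normalization (adjusted p = 0.449) and to -0.13 with median centring. Shh-MBs and control eyes overlapped and differed by -0.55 (limma adjusted p = 0.0912), which passed without control eye 2 (-0.73, adjusted p = 0.0101) and became 0.12 with median centring and 0.28 with quantile normalization.

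Fzd7, known from progenitor cells and from Wnt/beta-catenin signaling, measured 751, 837 and 626 in Shh-MBs, 468, 412, 371, 519.6 and 374 in RBS lesions and 404, 311, 299 and 397 in control eyes. All Shh-MBs were above all eyes, and both groups of eyes overlapped. Shh-MBs exceeded control eyes by 1.07 ± 0.167 (log2, SE; interval 0.67 to 1.47, limma adjusted p = 0.00236). RBS lesions fell below Shh-MBs by 0.78 on the log2 scale (-0.78, interval -1.15 to -0.42, limma adjusted p = 0.00254). Between RBS lesions and control eyes the difference was 0.28 (interval -0.05 to 0.61, limma adjusted p = 0.14).

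Fzd2 acts with Fzd7 in several tissues and is known as a receptor of Wnt5a. Its signal was 278.0, 283 and 260.2 in Shh-MBs, 232, 199, 179, 184 and 163 in RBS lesions and 209, 166, 159.7 and 225 in control eyes. Again all Shh-MBs were above all eyes, by a narrower gap, and the eyes overlapped. Shh-MBs exceeded control eyes by 0.54 ± 0.151 (limma adjusted p = 0.0277), a call lost when any of the 3 Shh-MBs or control eye 2 or 3 was left out (adjusted p from 0.0564 to 0.0898). RBS lesions minus Shh-MBs gave a log2 difference of -0.52 (interval -0.82 to -0.22, limma adjusted p = 0.00745). RBS lesions and control eyes had means of 192 ± 25.9 (n = 5) and 189.9 ± 32.3 (n = 4), and the interval of their difference was -0.30 to 0.34 (limma adjusted p = 0.923).

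**Figure D2:**
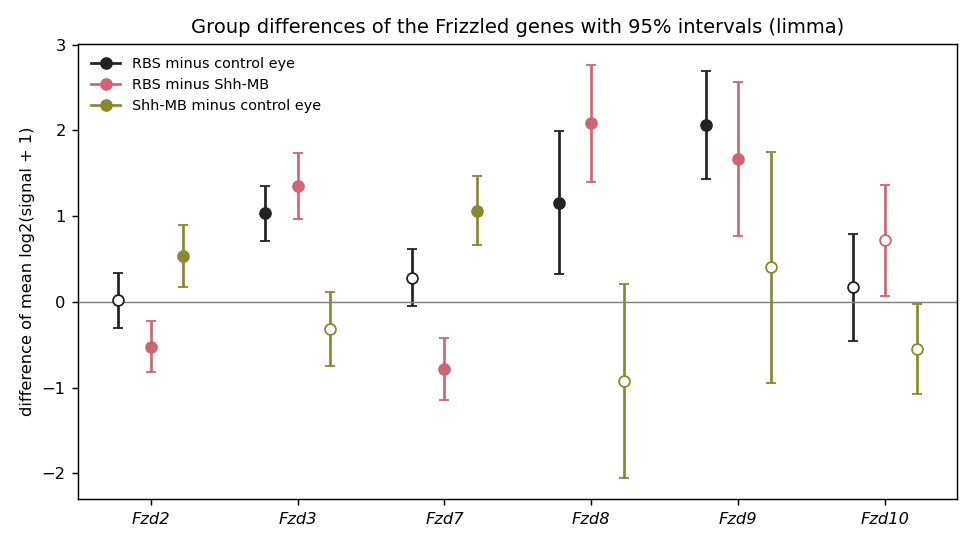
Differences of mean log2(signal + 1) of the 6 Frizzled genes in the 3 comparisons, with 95% intervals from limma; filled points have an adjusted p under 0.05. Fzd3, Fzd8 and Fzd9 lie above 0 in RBS lesions against both other groups, whereas Fzd2 and Fzd7 lie below 0 against Shh-MBs and at 0.02 and 0.28 against control eyes.

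Against Shh-MBs, then, 3 Frizzled genes were higher in RBS lesions (Fzd3, Fzd8 and Fzd9), 2 were lower (Fzd2 and Fzd7) and 1 was not called. Of all genes 60.8% passed in this comparison, 48.1% higher and 12.7% lower in RBS lesions. Groups did not overlap for all 6 Frizzled genes and for 59.9% of all genes. Median log2 differences were 1.03 for the Frizzled genes and 0.53 for all genes. Between Shh-MBs and control eyes 2 Frizzled genes were higher in the tumors and 4 were not called. Here 41.0% of all genes passed, 9.61% higher and 31.4% lower in Shh-MBs, and 2 of the 6 genes and 48.2% of all genes did not overlap. Medians were 0.04 for the Frizzled genes and -0.22 for all genes. The balance of all-gene calls depended on the scaling. With median centring 181 were higher and 319 lower in RBS lesions against Shh-MBs, and 311 and 139 in Shh-MBs against control eyes. With quantile normalization these counts were 204 and 234, and 221 and 147. Each group serves in 2 of the 3 comparisons, which are therefore not independent.

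Because the groups are small, each Frizzled gene was also tested by exact two-sided permutation of the samples in the 3 comparisons (18 tests). After Benjamini-Hochberg adjustment 7 of 18 exact permutation tests passed at p = 0.0459, namely Fzd3 and Fzd9 against control eyes and Fzd2, Fzd3, Fzd7, Fzd8 and Fzd9 in RBS lesions against Shh-MBs. Fzd8 against control eyes had an exact p of 0.0238 (adjusted 0.0536). The smallest p that the group sizes allow is 0.00794 for RBS lesions against control eyes, 0.0179 against Shh-MBs and 0.0286 for Shh-MBs against control eyes. Each of the 7 was at the smallest p of its comparison, and they passed the adjustment only together. The count stayed at 7 with centring on housekeeping genes, without the 3 most abundant genes and with a pseudocount of 5. It was 0 with median centring, quantile normalization or values under 20 set to 20.

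Differences of single genes depend on how the samples were scaled. Median centring moved the all-gene median log2 difference of the lesions to control eyes from 0.17 to -0.01 and that to Shh-MBs from 0.53 to -0.32, and for Shh-MBs against control eyes it went from -0.22 to 0.44. Against control eyes, Fzd3 and Fzd9 were higher in the lesions, with a call, under each of the 4 other scalings. Fzd2, by contrast, changed sign there under all 4, between -0.04 and -0.19, and was called under none. Against Shh-MBs, Fzd7 and Fzd2 were lower and Fzd8 was higher under each scaling, but their sizes ranged from -0.78 to -1.63 for Fzd7, from -0.52 to -1.37 for Fzd2 and from 2.08 to 0.86 for Fzd8. In Shh-MBs against control eyes Fzd7 and Fzd2 were higher, with a call, under each scaling, from 1.07 to 1.73 and from 0.54 to 1.21. In RBS lesions against Shh-MBs Fzd3 kept its direction but lost its call with median centring (0.50, limma adjusted p = 0.0716).

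**Figure D3:**
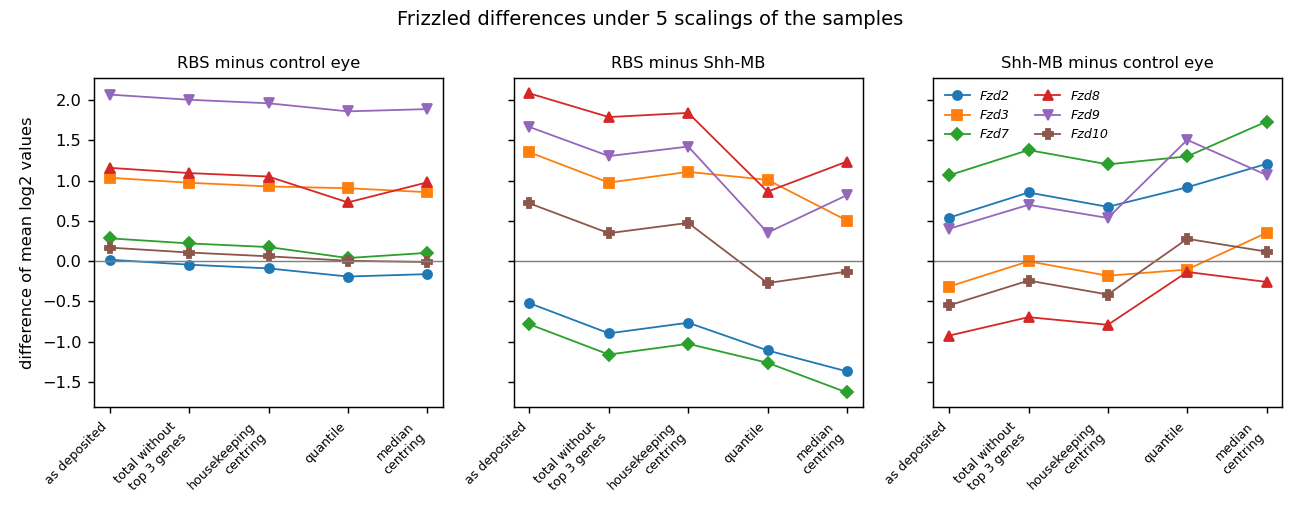
Differences of mean log2 values of the Frizzled genes (vertical axis) under the deposited scaling and 4 others, in RBS lesions against control eyes, RBS lesions against Shh-MBs and Shh-MBs against control eyes. In the comparison with control eyes Fzd9, Fzd8 and Fzd3 remain above 0 under each scaling, and against Shh-MBs Fzd9 lies above Fzd7 under each scaling while both lie lower than under the deposited one.

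A ratio of 2 genes within a sample is nearly free of that scaling, so all 15 pairs of Frizzled genes were compared in each of the 3 comparisons. After adjustment 0 of 45 exact permutation tests passed. The smallest adjusted p was 0.0618 in both comparisons of RBS lesions and 0.0714 in Shh-MBs against control eyes. Unadjusted, 8, 8 and 5 pairs had an exact p under 0.05. Groups did not overlap for 5, 8 and 5 of the 15 pairs, where 39.4%, 56.5% and 51.8% of all gene pairs of the panel did not overlap.

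Fzd3 over Fzd7 gave log2 ratios of 1.43, 2.07, 2.19, 1.61 and 2.28 in RBS lesions, 1.15, 1.50, 1.12 and 0.89 in control eyes and -0.52, -0.41 and 0.28 in Shh-MBs. Shh-MBs were below all eyes, and RBS 1 lay just below control eye 2. The ratio was 2.13 higher in RBS lesions than in Shh-MBs (exact p = 0.0179, adjusted 0.0618) and 0.75 higher than in control eyes (exact p = 0.0317, adjusted 0.0714). Fzd9 over Fzd10, the genes of a common subfamily, had a mean of -0.29 ± 0.506 (SD, n = 5) in RBS lesions and -2.19 ± 0.513 (n = 4) in control eyes. These groups did not overlap, even with RBS 1 at -1.17 (difference 1.90, exact p = 0.0159, adjusted 0.0618). Fzd2 over Fzd7 was nearly constant among control eyes, from -0.94 to -0.82, and lower in every RBS lesion, from -1.49 to -1.01. The difference was -0.26 (exact p = 0.0159, adjusted 0.0618). In Shh-MBs this ratio was between -1.56 and -1.26, also below the control eyes and overlapping with the lesions.

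**Figure D4:**
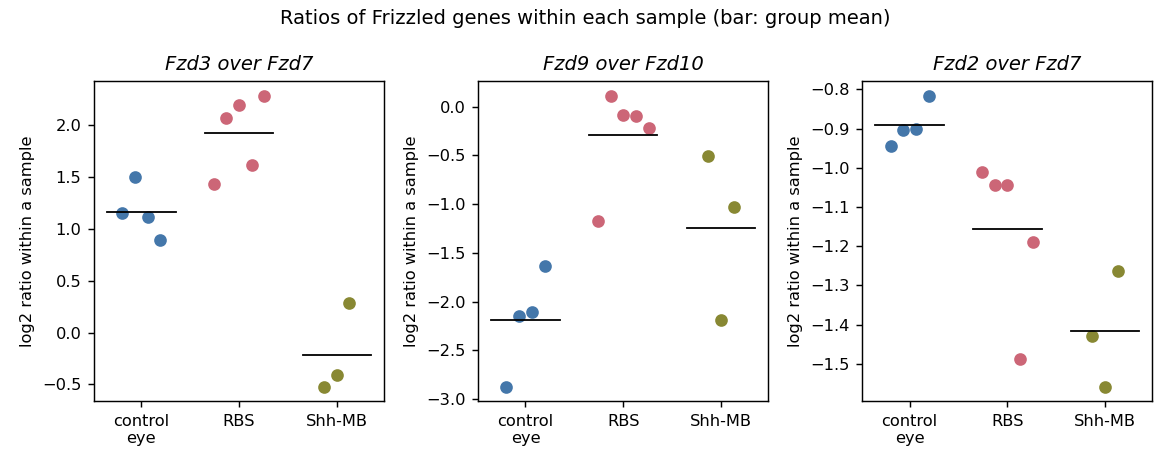
Log2 ratios of signals plus 1 within each sample for Fzd3 over Fzd7, Fzd9 over Fzd10 and Fzd2 over Fzd7, with a bar at each group mean; the zero of each axis depends on the probes, and only differences between samples can be read. By their means, Shh-MBs are lowest for Fzd3 over Fzd7, and control eyes are lowest for Fzd9 over Fzd10 and highest for Fzd2 over Fzd7.

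Among the lesions, RBS 1 was the most distant for 3 of the genes. It had the highest Fzd10 and Fzd2 and the lowest Fzd3 of the 5 lesions, and also the lowest depth. Without it the Fzd3 difference from control eyes was 1.12 (limma adjusted p = 0.000196) and the Fzd9 difference 2.08 (adjusted p = 0.000941). Among control eyes, replicate 4 had the highest Fzd2, Fzd9 and Fzd10 and the lowest Fzd8. In Shh-MBs, replicate 2 had the highest Fzd2 and Fzd7 and the lowest Fzd8, Fzd9 and Fzd10.

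Markers of other cell types moved with the groups. Of 16 neuron markers 9 are measured, and their summed signal was 3021 to 3948 in RBS lesions, 1065 to 1209 in control eyes and 1222 to 1764 in Shh-MBs. Like Fzd3 and Fzd9, this sum was higher in every RBS lesion than in every other sample. Between Shh-MBs and control eyes its members went different ways, with a mean signal of 306 and 615 for Mapt and 357 and 102 for Gria3. No measured neuron marker was at the lowest value in all samples of a group. Within the lesions the sum was 3021, 3098, 3325, 3948 and 3586 in RBS 1 to 5, so RBS 1 was lowest in it and in Fzd3, whereas RBS 4 was highest in it with the next lowest Fzd3. Mesenchyme markers, 10 of 14 measured, summed to 20322 to 37114 in RBS lesions, 26175 to 59136 in control eyes and 1679 to 2298 in Shh-MBs. Collagens made up most of this sum in the eyes. Pdgfra of the same list was highest in Shh-MBs (982, against 483 in RBS lesions and 349 in control eyes). Every other measured gene of the list had its lowest mean there, among them Pdgfrb (6.82, against 53.9 and 42.9). Surface epithelium markers, 8 of 12 measured, summed to 629 to 1139 in RBS lesions, 343 to 681 in control eyes and 20.9 to 26.3 in Shh-MBs, where Itga2 and Calml3 were at the lowest value in all 3 tumors. Blood and immune markers, 7 of 12 measured, summed to 199 to 272, 103 to 156 and 130.3 to 246 in the same order. Their part in the Frizzled differences was not tested.

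The genes nearest to each Frizzled gene by centred log2 profile over the 12 samples were looked up among 569 genes, as a root mean square distance in log2 units. Fzd3 lay nearest to Prkar2a (0.186), Pik3r3 (0.198) and Prkacb (0.208), which are subunits of protein kinase A and of PI3-kinase. Their mean signal in lesions, control eyes and tumors was 902, 524 and 437 for Prkar2a and 1017, 407 and 424 for Prkacb. Fzd2 had Smad3 (0.156), Akt2 (0.161) and Rad52 (0.169) nearest. For Fzd7 these were Socs2 (0.221), Trp53 (0.227) and Fzd2 (0.24), the only Frizzled gene named by this rule. Fzd10 had Cdkn1a (0.215), Ddb2 (0.253) and Prkaca (0.279). Fzd9, with Gng7 (0.397), Syk (0.488) and Tspan7 (0.51), and Fzd8, with Lfng (0.498), Mlf1 (0.502) and Pak3 (0.514), had less close neighbours. The points share the 12 samples and their scaling, and the distances are a description.

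Other components of the pathway were taken as lists. Of 19 Wnt ligands, which the Frizzleds bind, 15 are measured. In RBS lesions against control eyes 7 were higher and none was lower, with a median log2 difference of 0.73. The largest were Wnt3 (33.4 ± 4.65 against 3.57 ± 3.03, 3.15 on the log2 scale, limma adjusted p = 0.000191) and Wnt10b (8.66 against 1.30, 1.99, adjusted p = 0.000426), with 1 and 2 of the 4 control eyes at the lowest value. Wnt7a (1.60) and Wnt7b (1.38) followed. In this comparison 5 ligands were higher and 1 was lower with median centring. The counts were 6 and 1 with housekeeping genes, 5 and 0 with quantile normalization, and 7 and 0 without the 3 most abundant genes. Against Shh-MBs 10 ligands were higher and 1 was lower, with a median of 2.44, which was the same without the 2 ligands at the lowest value in all 3 tumors. Wnt11, among these, measured 52.9 ± 14.8 in RBS lesions. Wnt2b was at 109.8 and 3.26 (limma adjusted p = 3.8e-05) and Wnt7b at 385 and 15.6 (adjusted p = 6.22e-06). In Shh-MBs against control eyes no ligand was higher and 7 were lower, and 3 were higher and 7 lower with median centring.

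Downstream of the receptors, 2 of 3 Dishevelled genes were higher in RBS lesions against control eyes and 2 of 3 against Shh-MBs, Dvl1 (0.58 and 0.54) and Dvl3 (0.64 and 0.67), but with median centring both turned against Shh-MBs (-0.31 and -0.17). Of 10 genes of the beta-catenin destruction complex and beta-catenin 6 are measured, and 5 were higher in both comparisons with none lower, although against Shh-MBs median centring left 0 higher and 2 lower. Against control eyes the largest of them were Axin2 (0.92), also a target of the pathway, Apc (0.60), Gsk3b (0.56) and Fbxw11 (0.51). Against Shh-MBs they were Gsk3b (0.93), Apc (0.80) and Ctnnb1 (0.71), of which Apc and Ctnnb1 changed sign with median centring. Polarity and calcium genes, the branch in which Fzd3 is known to act, are measured for 8 of 25, and 5 were higher and none lower in RBS lesions against control eyes. Among them were the phospholipase Plcb1 (2.39), the kinase subunit Camk2b (1.69), the GTPase Rac3 (1.34) and Plcb4 (0.61). Against Shh-MBs 4 were higher and none lower, with Rac3 at 3.41, Camk2b at 0.85 and Rac1 at 0.37. With median centring 1 was higher and 2 were lower there, with Rac3 at 2.57, Camk2b at 0.00 and Rac1 at -0.47.

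Secreted antagonists were mixed, with 8 of 13 measured. In RBS lesions against control eyes 2 were higher, Wif1 (1.35) and Sost (1.30, called under none of the 4 other scalings), and 3 were lower, among them Dkk2 (-1.40), which acts on the co-receptors, and Sfrp2 (-1.10), which resembles the ligand-binding domain of the Frizzleds. Against Shh-MBs 4 were higher and 1 was lower, and 2 were higher and 2 lower under each of the 4 other scalings. Dkk2 was at 196 ± 30.3 against 2.29 ± 1.19, Wif1 at 133 against 12.8 and Sfrp1 at 889 against 4529.7 (-2.37, limma adjusted p = 2.9e-05). Wnt targets are measured for 9 of 14, some of them also in the lists above. Of these 2 were higher (Axin2 and Wif1) and 1 was lower (Ccnd1, -2.91) in RBS lesions against control eyes, and 4 were higher and 2 lower against Shh-MBs (2 higher and 2 or 3 lower under the other scalings), with Lef1 at 2.66 and Nkd1 at -1.58. The lists of 6 co-receptors and of 9 genes of Frizzled turnover and R-spondin signaling had 0 and 1 measured genes. That gene, Rnf43, was called in none of the 3 comparisons.

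**Figure D5:**
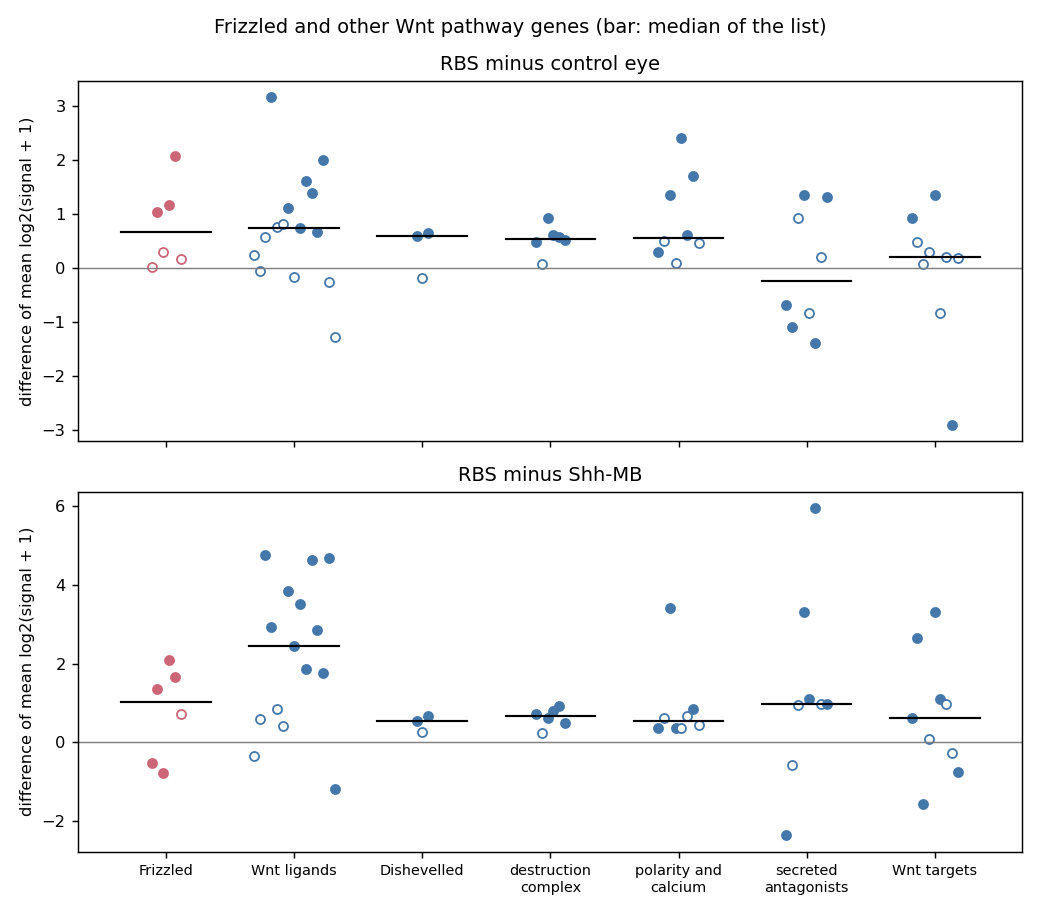
Differences of mean log2(signal + 1) of the 6 Frizzled genes (red) and of measured genes of 6 other Wnt pathway lists (blue) in RBS lesions against control eyes (top) and against Shh-MBs (bottom); filled points have a limma adjusted p under 0.05, and bars are list medians. Wnt ligands reach the highest median against Shh-MBs, where values of genes at the lowest signal in all tumors depend on the pseudocount, and secreted antagonists lie on both sides of 0.

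All lists together hold 45 measured genes of 91. Of these 21 were higher and 4 lower in RBS lesions against control eyes, with a median of 0.51. Against Shh-MBs 26 were higher and 4 lower, and in Shh-MBs against control eyes 4 were higher and 17 lower. With median centring these counts were 16 and 7, 14 and 13, and 15 and 13 in the 3 comparisons, and 8 of the genes called against Shh-MBs changed sign. Quantile normalization gave 18 and 6, 16 and 6, and 10 and 10. All-gene shares for the same calls are those given above for the Frizzled genes.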

How the data were processed

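RNA of fresh-frozen tissue was measured by the authors on the nCounter SPRINT Profiler and normalized in nSolver with its nCounter Advanced Analysis extension. The deposited signal is on the linear scale. Low values are evenly spaced, which gave the depth per sample, but from an offset that is not whole, so counts could not be recovered and no count test was run. The background setting, reference genes and probe sequences are not given in the sources used here. Columns were matched to samples by the labels.

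Values were analysed as log2(signal + 1) of 770 genes without a filter, using limma 3.58.1 in R 4.3.3 for each pair of groups (two-sided, Benjamini-Hochberg over 770 genes, threshold 0.05). Exact permutation tests enumerated every assignment of samples to the 2 groups. On simulated data with 200 genes changed by 1 on the log2 scale, 82.5%, 73% and 69.5% were recovered in RBS lesions against control eyes, RBS lesions against Shh-MBs and Shh-MBs against control eyes. Gene symbols matched RefSeq for 760 genes, and 10 matched as an older name. All Frizzled genes are named in full. Of each list up to 4 genes past the threshold with the largest absolute difference from control eyes and up to 3 against Shh-MBs are named. For each Frizzled gene the 3 nearest profiles are named. The Frizzled genes, lists, tests and rules were chosen with earlier results of these data known. Alternatives were 4 other scalings, a pseudocount of 5, values under 20 set to 20, low genes left out, other limma settings, the methods' Welch test without its permutations, a replicate block and leaving out each sample. Figures were drawn with matplotlib 3.10.9.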

Additional observations from a re-analysis of the deposited data

How the results depend on the processing

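Of 356 values of the Frizzled genes under the alternatives, 301 kept their direction and their side of the threshold, 30 lost the call, 9 gained it and 16 changed sign, and no called value changed sign. The cause was not tested. In RBS lesions against control eyes Fzd2 (0.02) was -0.16 with median centring, -0.09 with housekeeping genes, -0.19 with quantile normalization and -0.044 without the 3 most abundant genes, and -0.059 to 0.105 with each sample left out in turn. Fzd10 (0.17) was -0.011 with median centring and -0.038 to 0.296 on leaving out samples. Against Shh-MBs Fzd10 with median centring was -0.13 and with quantile values -0.27. In Shh-MBs against control eyes Fzd3 was 0.35 with median centring, Fzd10 was 0.12 and 0.28 with median centring and quantile normalization, and Fzd9 was -0.055 to 0.956 on leaving out samples, with the lowest value without Shh-MB 1. Fzd9 was called there with quantile normalization (1.505, adjusted p = 0.0138), and Fzd8 without control eye 4 (-1.28, adjusted p = 0.0319). Setting values under 20 to 20 makes all Fzd8 values equal, so its difference is 0.

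The methods name a Welch test with permutations, which was run here with p-values from the t distribution instead. With step-down Bonferroni adjustment it called 72, 80 and 36 genes in RBS lesions against control eyes, RBS lesions against Shh-MBs and Shh-MBs against control eyes, where limma called 394, 468 and 316. No Frizzled gene was among them. Of the Wnt pathway lists it called 5, 5 and 2 genes. With Benjamini-Hochberg adjustment it called 347, 380 and 217 genes, and 3 Frizzled calls were lost, Fzd8 against control eyes (adjusted p = 0.105), Fzd9 in RBS lesions against Shh-MBs (0.159) and Fzd2 in Shh-MBs against control eyes (0.0575). Leaving out a sample gave 350.0 to 392, 423 to 478 and 250.0 to 313 genes with limma. Exact permutation passed 7 of 18 tests of single Frizzled genes, and 0 with median centring, with quantile normalization or with values under 20 set to 20, alternatives chosen after the data were seen. This count needs several tests at their smallest p to pass at once, so 0 does not show that single differences were lost, and Fzd3 and Fzd9 against control eyes kept their limma calls under these 3 settings. Of the pairs 0 of 45 passed, and 17 with values under 20 set to 20. With that floor all Fzd8 values are equal, so its ratios follow the other gene alone and depend on the scaling. Low values of Fzd9 are also raised by it. Calls higher and lower in the first-named group were 254 and 140, 370 and 98, and 74 and 242. They became 177 and 177, 181 and 319, and 311 and 139 with median centring, and 187 and 179, 204 and 234, and 221 and 147 with quantile normalization. With housekeeping genes the last 2 comparisons gave 292 and 138, and 102 and 196, and without the 3 most abundant genes 273 and 164, and 160 and 177.

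Samples with the same number did not deviate together (correlations from -0.148 to 0.188). No pairing by number was seen, but with so few samples this cannot exclude one. A fit with a replicate block, which also drops samples without a partner, called 301, 407 and 230 genes. In it Fzd8 against control eyes (1.06, adjusted p = 0.061) and Fzd2 in RBS lesions against Shh-MBs (-0.43, adjusted p = 0.0572) were not called, and the other Frizzled calls were as without it. Fzd8 had the same difference, also not called, with RBS 5 left out and no block (adjusted p = 0.0586). Depth limits Fzd8 most, with at most 23.1 counts above background in any sample.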
